A study of Mus musculus with 22 samples.

Results

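The 40 genes described here act in DNA replication and mitosis, and their RNA marks cells that are dividing. They were chosen by name as textbook cell cycle genes. All 40 were found among the 37620 genes of the count table, and all 40 passed the filter on low counts. The libraries come from lymphocytes isolated by sorting from mammary tumours, pooled, of C57BL/6 females aged 20 to 24 weeks that carry PyMT, the polyoma middle T oncogene, which drives tumours of the mammary gland. Because the tumours were pooled, a library may mix cells of several mice. There are 11 sorted populations with 2 libraries each, and all 22 come from tumour-bearing mice, so no population from healthy tissue serves as a control.

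A first set of 6 populations pairs each innate-like population with a conventional one. ILC1l cells, innate lymphoid cells of type 1 character, are paired with cNK, the conventional natural killer cells. TCRab+ILTC1, innate-like T cells with an alpha-beta receptor, are paired with TCRb+CD8a+NK1.1- T cells. TCRgd+ILTC1 cells, which carry a gamma-delta receptor, are paired with TCRgd+NK1.1- T cells. A second set of 5 populations is named by surface markers alone: TCR-NK1.1+, TCRb+CD8a-NK1.1+, TCRb+CD8a+NK1.1+, TCRb+CD8a+PD1+ and TCRb+CD8a+PD1-NK1.1-. The question put to the cell cycle genes was whether innate-like cells hold more or less of this RNA than conventional cells.

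A dividing cell first commits to DNA synthesis, when cyclin E and the transcription factor E2F1 act. It then fires the MCM helicase, which was loaded at origins of replication beforehand, and makes nucleotides for new DNA. Cyclin B with the kinase Cdk1 then drives mitosis, in which Aurora and Polo-like kinases, centromere proteins and kinesin motors separate the chromosomes. Lymphocytes at rest hold little of this RNA, and activated T cells and NK cells make much of it when they expand.

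Total counts per library ran from 8696335 to 20602715, and 3 counts corresponded to 0.146 to 0.345 CPM (counts scaled to a common library size of 1000000). The genes of the sort were checked first. Klrb1c, which encodes NK1.1, stood at 924 to 2466 CPM in the populations sorted as NK1.1+, ILC1l, cNK and ILTC1, and at 0.842 to 82.1 CPM in the 4 others. Cd3e, a subunit of the T cell receptor complex, stood at 0.618 and 6.08 CPM in cNK but at 85.8 and 458 CPM in ILC1l and 216 and 437 CPM in TCR-NK1.1+, which are named as cells without that receptor. Itga1, a residency integrin, stood at 342 and 253 CPM in ILC1l and 3.86 and 7.76 CPM in cNK. Markers of other cells differed between populations. The summed level of 15 myeloid markers was 7573 and 18818 CPM in TCRgd+NK1.1- and 161 to 1764 CPM in the other 20 libraries. In TCRgd+NK1.1- all 15 had 3 or more counts in both libraries. The sum of 16 epithelial and tumour markers was 7981 and 4799 CPM in TCR-NK1.1+, 5389 and 1153 CPM in TCRb+CD8a-NK1.1+ and 4631 and 2336 CPM in TCRgd+NK1.1-. It was lowest in cNK, at 78.4 and 144 CPM, where 10 of the 16 still had 3 or more counts in both libraries. The milk protein genes Csn2 and Wap and the keratins Krt14 and Krt5 had 0 counts in both cNK libraries. In TCRab+ILTC1 6 of the 16 had 0 counts in both libraries, these 4 among them. B cell markers summed to 188 to 2120 CPM, highest in cNK replicate 1. Stromal and endothelial markers summed to 4.26 to 914 CPM and erythroid markers to 0 to 285 CPM, both highest in TCRgd+NK1.1- replicate 1. Tumour and myeloid cells divide too, and the part of these cells in the levels below was not tested.

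Promoters of several members show the elements by which cell cycle genes are known to be switched together. RefSeq entries of build GRCm38.p6 gave a window of 300 bases, 250 before and 50 after the transcription start, for 33 of the 40 members. Mcm7 and Uhrf1 have several starts, and the first listed was used. No entry was found for Tpx2, Kif20a, Mcm4, Stmn1, Ccna2, Aurkb and Ccne2. The motifs searched on both strands were CCAAT (the NF-Y box), TTTGAA or TTCGAA (CHR, the cell cycle genes homology region) and TTTCCCGC, TTTCGCGC, TTTGCCGC or TTTGGCGC (E2F). Matches of different motifs, or of E2F on opposite strands, can share bases. A window with both CCAAT and CHR was seen in 14 of 18 mitotic members and proliferation markers (77.8%), in 3 of 15 members of the G1/S, licensing and DNA synthesis roles (20.0%) and in 7.52% of all 32851 promoters of that length. CCAAT alone was present in 26 of 33 members (78.8%) and in 37.4% of all promoters. An E2F match was present in 6 of 33 members (18.2%), of which 5 are licensing genes, and in 2.26% of all promoters. A match is a run of letters and not a measured binding site. The sequences below are the last 150 bases before the start, 5′ to 3′ on the gene's strand, with matches in capitals. Ccnb1, Ccnb2, Cdc20, Kif11 and Cdk1 were chosen to show mitotic promoters, Mcm6 one with E2F matches, and Uhrf1 because it is the member called in a comparison below.
Ccnb1 (chr13:100786487-100786636, minus strand): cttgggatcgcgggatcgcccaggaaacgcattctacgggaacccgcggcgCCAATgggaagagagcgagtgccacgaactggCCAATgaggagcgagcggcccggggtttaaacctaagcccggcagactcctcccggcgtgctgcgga
Ccnb2 (chr9:70421555-70421704, minus strand): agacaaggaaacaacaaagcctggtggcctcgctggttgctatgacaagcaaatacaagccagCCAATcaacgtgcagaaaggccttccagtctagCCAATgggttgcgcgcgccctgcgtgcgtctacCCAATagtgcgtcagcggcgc
Cdc20 (chr4:118437344-118437493, minus strand): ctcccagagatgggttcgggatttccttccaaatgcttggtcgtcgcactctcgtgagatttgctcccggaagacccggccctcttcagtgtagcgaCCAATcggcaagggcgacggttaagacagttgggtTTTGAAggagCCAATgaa
Kif11 (chr19:37376232-37376381, plus strand): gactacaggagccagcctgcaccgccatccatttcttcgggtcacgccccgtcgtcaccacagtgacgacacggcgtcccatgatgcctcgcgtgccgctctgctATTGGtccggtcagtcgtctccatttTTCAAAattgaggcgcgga
Cdk1 (chr10:69352913-69353062, minus strand): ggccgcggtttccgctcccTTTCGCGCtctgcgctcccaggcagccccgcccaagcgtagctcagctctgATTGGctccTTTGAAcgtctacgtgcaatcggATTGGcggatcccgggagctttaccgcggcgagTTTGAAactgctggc
Mcm6 (chr1:128359706-128359855, minus strand): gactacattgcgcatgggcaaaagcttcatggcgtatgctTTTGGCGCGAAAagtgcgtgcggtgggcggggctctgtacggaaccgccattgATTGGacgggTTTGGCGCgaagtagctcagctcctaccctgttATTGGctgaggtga
Uhrf1 (chr17:56303187-56303336, plus strand): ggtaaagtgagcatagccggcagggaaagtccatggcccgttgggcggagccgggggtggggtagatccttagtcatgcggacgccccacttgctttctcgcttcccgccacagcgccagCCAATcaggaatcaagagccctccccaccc

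In these stretches Ccnb1 shows 2 CCAAT matches and Ccnb2 shows 3, with no CHR match in either. Kif11 and Cdc20 show both CCAAT and CHR, Cdk1 shows all 3 motifs, Mcm6 shows E2F together with CCAAT, and Uhrf1 shows 1 CCAAT match.

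RNA of the cell cycle genes was present in every population. Of the 40 members, 39 had at least 3 counts in each of the 22 libraries. E2f1 was the exception, with 0 counts in TCRgd+NK1.1- replicate 2. Cdc45 had 3 counts in TCRab+ILTC1 replicate 2, 0.224 CPM, against 27.0 CPM in replicate 1. Across the 11 populations the highest mean of a member exceeded its lowest by a median of 2.66-fold, from 1.86-fold for Mcm3 to 4.65-fold for Cenpf. The 2 libraries of 1 population differed by a median of 0.43 on the log2 scale over members. This gap was 0.26 in TCRgd+ILTC1 and 0.82 in TCRgd+NK1.1-, the widest of the 11 populations, so single genes of the latter are known least precisely.

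**Figure D1:**
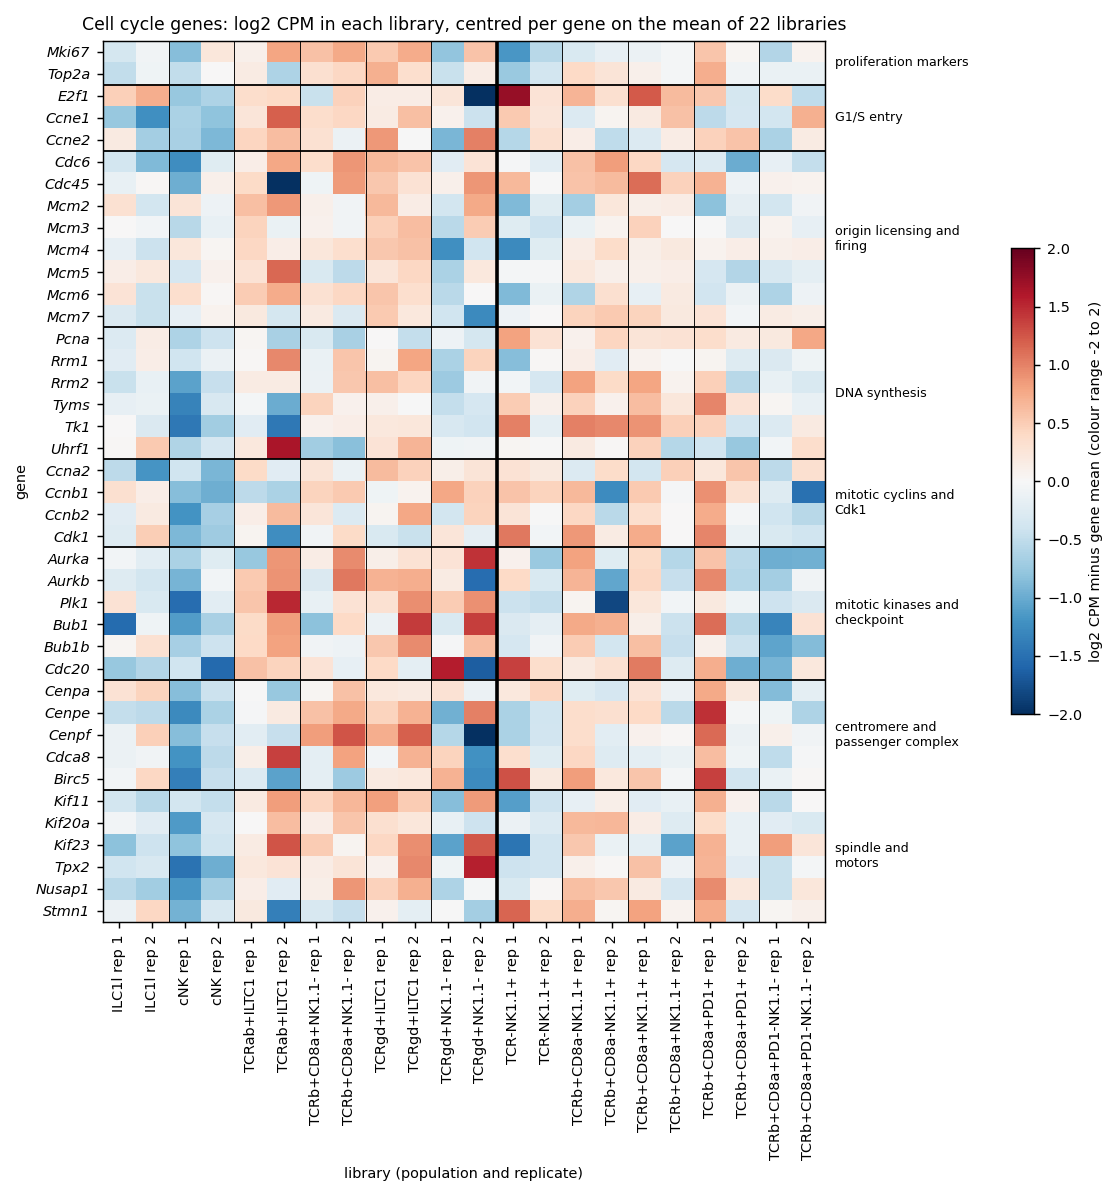
Log2 CPM of the 40 genes (rows, by role) in the 22 libraries (columns), as the difference from each gene's mean over 22 libraries; the thick line separates the 2 sets. Both cNK columns are blue in most rows of DNA synthesis and mitosis, while the licensing genes Mcm2, Mcm4 and Mcm6 do not stand out there.

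The order of the populations by the mean log2 CPM of the 40 members began with cNK. The 2 cNK libraries stood at 4.83 and 5.20, below the other 20 libraries, whose lowest value was 5.31 (TCRb+CD8a+PD1-NK1.1- replicate 1). Next came TCRb+CD8a+PD1-NK1.1- at 5.31 and 5.51, ILC1l at 5.42 and 5.46, and TCRgd+NK1.1- at 5.42 and 5.53, where each overlapped the next. TCR-NK1.1+ followed at 5.61 and 5.52, overlapping TCRgd+NK1.1-. A group of 5 populations whose neighbours overlapped had means between 5.75 and 5.80: TCRab+ILTC1, TCRb+CD8a+NK1.1+, TCRb+CD8a+PD1+, TCRb+CD8a+NK1.1- and TCRb+CD8a-NK1.1+. TCRgd+ILTC1 came last, at 5.96 and 6.06. Single libraries reached as high elsewhere: TCRb+CD8a+PD1+ stood at 6.09 in replicate 1 and 5.44 in replicate 2. A mean log2 difference of 0.99 separated the lowest and the highest population. The 2 sets were compared here in one scaling of all 22 libraries, and the order is a description. On the scale of summed CPM, cNK was again lowest by its mean, at 2148 and 2591 CPM, but TCRgd+NK1.1- replicate 1, at 2326 CPM, then lay between its 2 libraries. In sorted bulk cells, a smaller share of dividing cells and less of this RNA in each dividing cell cannot be told apart.

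**Figure D2:**
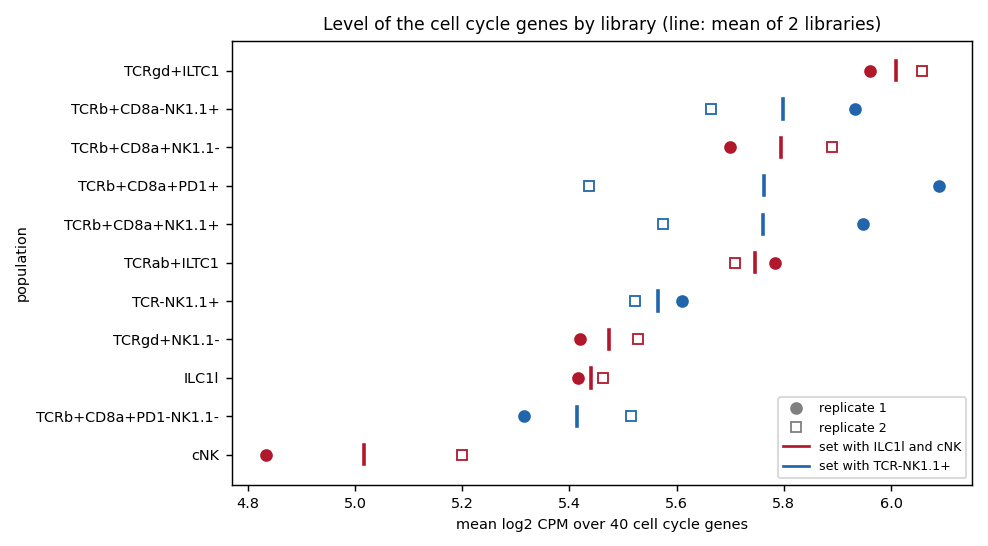
Mean log2 CPM over the 40 cell cycle genes (x axis) for each library, by population (y axis, ordered by the mean, marked by a line). The 2 cNK libraries lie below all others, and the populations from TCRab+ILTC1 to TCRb+CD8a-NK1.1+ overlap.

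cNK was the population of lowest mean for 21 of the 40 members, but by role the picture was uneven. It ranked lowest for DNA synthesis, mitotic cyclins and Cdk1, mitotic kinases and checkpoint, centromere and passenger complex, and spindle and motors. For origin licensing it ranked 5 of 11 from below, with TCR-NK1.1+ lowest. Its mean log2 CPM for mitotic cyclins and Cdk1 was 4.28 and 4.30, against 4.59 or more in the other libraries. Ccnb2 and Tpx2 had both cNK libraries below the other 20. Mcm4 was the member with both TCRgd+ILTC1 libraries above the other 20. These counts of lowest and highest populations were made for members only, so no share over all genes stands beside them.

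The proliferation markers were as follows. Mki67, the antigen by which dividing cells are counted, stood at 103 and 124 CPM in ILC1l, 72.2 and 154 in cNK, 140.4 and 225 in TCRab+ILTC1, 197 and 221 in TCRb+CD8a+NK1.1-, 187 and 219 in TCRgd+ILTC1 and 75.6 and 194 in TCRgd+NK1.1-. Mki67 in the second set stood at 58.3 and 89.3 CPM in TCR-NK1.1+, 105 and 117 in TCRb+CD8a-NK1.1+, 120.3 and 127 in TCRb+CD8a+NK1.1+, 192 and 135 in TCRb+CD8a+PD1+ and 86.6 and 138 in TCRb+CD8a+PD1-NK1.1-. The 2 cNK libraries stood far apart, and TCRb+CD8a+NK1.1- was high in both libraries. Top2a, the topoisomerase that untangles replicated DNA, stood at 182 and 241 CPM in ILC1l, 182 and 258 in cNK, 289 and 167 in TCRab+ILTC1, 321 and 343 in TCRb+CD8a+NK1.1-, 421 and 323 in TCRgd+ILTC1 and 187 and 283 in TCRgd+NK1.1-. Top2a in the second set stood at 154 and 198 CPM in TCR-NK1.1+, 339 and 306 in TCRb+CD8a-NK1.1+, 275 and 250.4 in TCRb+CD8a+NK1.1+, 426 and 245 in TCRb+CD8a+PD1+ and 233 and 234 in TCRb+CD8a+PD1-NK1.1-. TCR-NK1.1+ had the lowest mean for both genes, and ILC1l overlapped cNK in both.

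The genes of G1/S entry came next. E2f1, a transcription factor of S-phase genes, stood at 6.80 and 8.16 CPM in ILC1l, 2.86 and 3.17 in cNK, 6.25 and 6.48 in TCRab+ILTC1, 3.56 and 6.75 in TCRb+CD8a+NK1.1-, 5.44 and 5.41 in TCRgd+ILTC1 and 5.83 and 0 in TCRgd+NK1.1-. E2f1 in the second set stood at 16.5 and 5.89 CPM in TCR-NK1.1+, 7.89 and 6.13 in TCRb+CD8a-NK1.1+, 11.6 and 7.66 in TCRb+CD8a+NK1.1+, 7.10 and 3.83 in TCRb+CD8a+PD1+ and 6.31 and 3.42 in TCRb+CD8a+PD1-NK1.1-. Both cNK libraries were low, and TCR-NK1.1+ replicate 1 was the highest of all. Ccne2, a cyclin E that activates Cdk2, stood at 38.3 and 21.03 CPM in ILC1l, 21.5 and 18.1 in cNK, 45.5 and 51.6 in TCRab+ILTC1, 41.7 and 30.99 in TCRb+CD8a+NK1.1-, 61.6 and 33.3 in TCRgd+ILTC1 and 17.9 and 68.03 in TCRgd+NK1.1-. Ccne2 in the second set stood at 22.6 and 42.1 CPM in TCR-NK1.1+, 36.7 and 23.5 in TCRb+CD8a-NK1.1+, 27.9 and 37.4 in TCRb+CD8a+NK1.1+, 46.4 and 50.03 in TCRb+CD8a+PD1+ and 21.7 and 37.5 in TCRb+CD8a+PD1-NK1.1-. TCRgd+NK1.1- held both the lowest and the highest library, so its level is poorly determined here. Ccne1, the other cyclin E gene, ran from 3.12 to 17.2 CPM over the 22 libraries, with TCRab+ILTC1 replicate 2 highest.

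Among the origin genes, Mcm2, a subunit of the replicative helicase, stood at 124 and 78.04 CPM in ILC1l, 121 and 94.01 in cNK, 153 and 185 in TCRab+ILTC1, 108 and 95.7 in TCRb+CD8a+NK1.1-, 158 and 111 in TCRgd+ILTC1 and 78.5 and 169.7 in TCRgd+NK1.1-. Mcm2 in the second set stood at 54.6 and 84.98 CPM in TCR-NK1.1+, 62.6 and 118 in TCRb+CD8a-NK1.1+, 109.7 and 111 in TCRb+CD8a+NK1.1+, 56.9 and 88.7 in TCRb+CD8a+PD1+ and 77.8 and 96.1 in TCRb+CD8a+PD1-NK1.1-. cNK was not low for this gene, and TCRab+ILTC1 lay above its conventional partner. Mcm5, another helicase subunit, stood at 123 and 129 CPM in ILC1l, 88.1 and 119 in cNK, 137 and 246 in TCRab+ILTC1, 89.9 and 77.7 in TCRb+CD8a+NK1.1-, 133 and 148 in TCRgd+ILTC1 and 71.8 and 129 in TCRgd+NK1.1-. Mcm5 in the second set stood at 109 and 109.8 CPM in TCR-NK1.1+, 129 and 120.3 in TCRb+CD8a-NK1.1+, 119.7 and 123 in TCRb+CD8a+NK1.1+, 88.5 and 74.6 in TCRb+CD8a+PD1+ and 89.6 and 97.9 in TCRb+CD8a+PD1-NK1.1-. Both libraries of each innate-like population lay above both of its conventional partner. Mcm3, Mcm6 and Mcm7 ran from 108 to 244, from 151 to 466 and from 34.9 to 122 CPM. Mcm4 ran from 80.8 CPM in TCR-NK1.1+ replicate 1 to 293 CPM in TCRgd+ILTC1 replicate 2. Cdc6, the loader of the helicase, ran from 14.9 CPM in cNK replicate 1 to 65.4 CPM in TCRb+CD8a+NK1.1- replicate 2, and Cdc45, which activates the helicase, from 0.224 to 45.1 CPM.

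The DNA synthesis genes include the clamp and the enzymes of nucleotide supply. Pcna, the sliding clamp of DNA polymerase, stood at 112 and 149 CPM in ILC1l, 87.5 and 101 in cNK, 138 and 86.1 in TCRab+ILTC1, 109 and 85.99 in TCRb+CD8a+NK1.1-, 135 and 96.7 in TCRgd+ILTC1 and 126 and 106 in TCRgd+NK1.1-. Pcna in the second set stood at 237 and 164 CPM in TCR-NK1.1+, 142 and 181 in TCRb+CD8a-NK1.1+, 162 and 166 in TCRb+CD8a+NK1.1+, 173 and 153 in TCRb+CD8a+PD1+ and 155 and 230.0 in TCRb+CD8a+PD1-NK1.1-. Pcna tended to be higher in the second set, and this difference between sets was not tested. Rrm2, the regulated subunit of ribonucleotide reductase, stood at 161 and 198 CPM in ILC1l, 105 and 158 in cNK, 246 and 245 in TCRab+ILTC1, 202 and 319 in TCRb+CD8a+NK1.1-, 334 and 294 in TCRgd+ILTC1 and 133 and 209 in TCRgd+NK1.1-. Rrm2 in the second set stood at 212 and 173 CPM in TCR-NK1.1+, 385 and 287 in TCRb+CD8a-NK1.1+, 377 and 229 in TCRb+CD8a+NK1.1+, 304 and 148 in TCRb+CD8a+PD1+ and 198 and 178 in TCRb+CD8a+PD1-NK1.1-. cNK held the lowest library, and TCRb+CD8a-NK1.1+ was the highest population. Tyms, thymidylate synthase, stood at 78.7 and 80.9 CPM in ILC1l, 35.1 and 70.9 in cNK, 85.9 and 44.4 in TCRab+ILTC1, 120.4 and 94.2 in TCRb+CD8a+NK1.1-, 95.2 and 87.8 in TCRgd+ILTC1 and 63.7 and 70.2 in TCRgd+NK1.1-. Tyms in the second set stood at 126 and 95.2 CPM in TCR-NK1.1+, 122 and 94.1 in TCRb+CD8a-NK1.1+, 135 and 103 in TCRb+CD8a+NK1.1+, 175 and 106 in TCRb+CD8a+PD1+ and 91.3 and 79.99 in TCRb+CD8a+PD1-NK1.1-. cNK replicate 1 and TCRab+ILTC1 replicate 2 were low, each well under its partner library. Rrm1 ran from 105 to 370 CPM. Tk1, thymidine kinase, ran from 12.8 CPM in cNK replicate 1 to 70.1 CPM in TCRb+CD8a-NK1.1+ replicate 1, and its population means differed by 4.03-fold.

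For the mitotic cyclins and their kinase, Ccna2, cyclin A, stood at 22.3 and 14.2 CPM in ILC1l, 24.5 and 17.02 in cNK, 41.9 and 27.4 in TCRab+ILTC1, 38.7 and 29.3 in TCRb+CD8a+NK1.1-, 49.9 and 44.4 in TCRgd+ILTC1 and 35.1 and 38.6 in TCRgd+NK1.1-. Ccna2 in the second set stood at 39.6 and 36.9 CPM in TCR-NK1.1+, 26.8 and 41.6 in TCRb+CD8a-NK1.1+, 25.1 and 45.03 in TCRb+CD8a+NK1.1+, 37.7 and 47.5 in TCRb+CD8a+PD1+ and 22.4 and 40.1 in TCRb+CD8a+PD1-NK1.1-. ILC1l and cNK were the lowest populations, and their libraries overlapped. Ccnb1, cyclin B1, which brings cells into mitosis, stood at 37.3 and 32.8 CPM in ILC1l, 16.5 and 15.1 in cNK, 20.7 and 19.3 in TCRab+ILTC1, 40.8 and 43.1 in TCRb+CD8a+NK1.1-, 28.1 and 31.5 in TCRgd+ILTC1 and 51.2 and 41.3 in TCRgd+NK1.1-. Ccnb1 in the second set stood at 44.2 and 40.7 CPM in TCR-NK1.1+, 46.7 and 12.4 in TCRb+CD8a-NK1.1+, 42.9 and 29.4 in TCRb+CD8a+NK1.1+, 56.5 and 36.8 in TCRb+CD8a+PD1+ and 25.1 and 10.6 in TCRb+CD8a+PD1-NK1.1-. Within the first set Ccnb1 was lowest in cNK, followed without overlap by TCRab+ILTC1, TCRgd+ILTC1 and ILC1l, and was highest in TCRb+CD8a+NK1.1- and TCRgd+NK1.1-, which overlapped. Cdk1, the kinase bound by cyclin B, stood at 31.7 and 53.1 CPM in ILC1l, 20.3 and 23.2 in cNK, 39.1 and 16.02 in TCRab+ILTC1, 35.96 and 49.5 in TCRb+CD8a+NK1.1-, 30.6 and 27.8 in TCRgd+ILTC1 and 44.7 and 33.5 in TCRgd+NK1.1-. Cdk1 in the second set stood at 78.8 and 36.6 CPM in TCR-NK1.1+, 69.05 and 42.2 in TCRb+CD8a-NK1.1+, 63.3 and 37.98 in TCRb+CD8a+NK1.1+, 74.2 and 34.6 in TCRb+CD8a+PD1+ and 30.7 and 28.7 in TCRb+CD8a+PD1-NK1.1-. ILC1l lay above cNK in both libraries, and the libraries of TCRab+ILTC1 differed widely. Ccnb2 ran from 17.4 CPM in cNK replicate 1 to 68.4 CPM in TCRgd+ILTC1 replicate 2.

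Among kinases and checkpoint genes, Plk1, the Polo-like kinase of mitotic entry, stood at 16.4 and 10.9 CPM in ILC1l, 4.64 and 11.6 in cNK, 19.9 and 38.4 in TCRab+ILTC1, 12.2 and 16.5 in TCRb+CD8a+NK1.1-, 16.6 and 25.7 in TCRgd+ILTC1 and 19.2 and 25.5 in TCRgd+NK1.1-. Plk1 in the second set stood at 10.1 and 9.68 CPM in TCR-NK1.1+, 14.03 and 3.75 in TCRb+CD8a-NK1.1+, 15.8 and 13.1 in TCRb+CD8a+NK1.1+, 15.5 and 12.7 in TCRb+CD8a+PD1+ and 10.2 and 11.03 in TCRb+CD8a+PD1-NK1.1-. TCRab+ILTC1 lay above TCRb+CD8a+NK1.1- in both libraries. Aurkb, the kinase of the chromosomal passenger complex, stood at 21.3 and 19.7 CPM in ILC1l, 13.4 and 24.5 in cNK, 36.7 and 47.6 in TCRab+ILTC1, 20.8 and 52.97 in TCRb+CD8a+NK1.1-, 41.4 and 42.1 in TCRgd+ILTC1 and 28.5 and 8.80 in TCRgd+NK1.1-. Aurkb in the second set stood at 33.6 and 20.5 CPM in TCR-NK1.1+, 40.6 and 12.3 in TCRb+CD8a-NK1.1+, 33.9 and 18.5 in TCRb+CD8a+NK1.1+, 49.6 and 17.1 in TCRb+CD8a+PD1+ and 15.9 and 24.1 in TCRb+CD8a+PD1-NK1.1-. The libraries of TCRb+CD8a+NK1.1-, TCRb+CD8a+PD1+ and TCRb+CD8a-NK1.1+ stood far apart, and the populations overlapped broadly. Cdc20, the activator of the anaphase-promoting complex, stood at 5.12 and 5.76 CPM in ILC1l, 6.57 and 2.91 in cNK, 13.1 and 11.8 in TCRab+ILTC1, 10.5 and 7.73 in TCRb+CD8a+NK1.1-, 11.5 and 7.59 in TCRgd+ILTC1 and 25.9 and 2.72 in TCRgd+NK1.1-. Cdc20 in the second set stood at 22.5 and 11.1 CPM in TCR-NK1.1+, 9.84 and 10.7 in TCRb+CD8a-NK1.1+, 17.8 and 7.23 in TCRb+CD8a+NK1.1+, 14.3 and 4.39 in TCRb+CD8a+PD1+ and 4.51 and 10.02 in TCRb+CD8a+PD1-NK1.1-. TCRgd+NK1.1- held the lowest and the highest library. Aurka ran from 7.95 to 42.9, Bub1 from 4.97 to 38.6 and Bub1b from 19.6 to 78.4 CPM; the last 2 guard attachment of chromosomes to the spindle.

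Centromere and passenger genes act when chromosomes attach to the spindle. Cenpa, the histone that marks centromeres, stood at 47.02 and 52.6 CPM in ILC1l, 21.4 and 28.5 in cNK, 38.5 and 22.7 in TCRab+ILTC1, 39.6 and 57.9 in TCRb+CD8a+NK1.1-, 44.4 and 43.9 in TCRgd+ILTC1 and 46.8 and 35.7 in TCRgd+NK1.1-. Cenpa in the second set stood at 44.6 and 52.1 CPM in TCR-NK1.1+, 32.7 and 30.4 in TCRb+CD8a-NK1.1+, 46.6 and 35.5 in TCRb+CD8a+NK1.1+, 65.4 and 44.2 in TCRb+CD8a+PD1+ and 20.99 and 33.8 in TCRb+CD8a+PD1-NK1.1-. ILC1l lay above cNK in both libraries. Birc5, survivin of the passenger complex, stood at 42.6 and 59.2 CPM in ILC1l, 17.1 and 32.3 in cNK, 36.7 and 21.1 in TCRab+ILTC1, 38.7 and 26.9 in TCRb+CD8a+NK1.1-, 50.5 and 51.5 in TCRgd+ILTC1 and 72.1 and 18.6 in TCRgd+NK1.1-. Birc5 in the second set stood at 107 and 50.8 CPM in TCR-NK1.1+, 79.6 and 51.2 in TCRb+CD8a-NK1.1+, 65.1 and 43.03 in TCRb+CD8a+NK1.1+, 114 and 34.04 in TCRb+CD8a+PD1+ and 40.7 and 45.2 in TCRb+CD8a+PD1-NK1.1-. The libraries of TCRb+CD8a+PD1+ and of TCRgd+NK1.1- stood far apart for Birc5. Cenpe, Cenpf and Cdca8 ran from 15.9 to 106, from 6.80 to 72.2 and from 17.9 to 108 CPM.

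Spindle genes closed the list. Kif11, the kinesin that pushes spindle poles apart, stood at 45.3 and 39.8 CPM in ILC1l, 45.4 and 41.98 in cNK, 66.2 and 105 in TCRab+ILTC1, 79.1 and 92.97 in TCRb+CD8a+NK1.1-, 103 and 82.99 in TCRgd+ILTC1 and 32.6 and 106 in TCRgd+NK1.1-. Kif11 in the second set stood at 27.3 and 44.1 CPM in TCR-NK1.1+, 52.3 and 63.5 in TCRb+CD8a-NK1.1+, 50.2 and 52.6 in TCRb+CD8a+NK1.1+, 95.5 and 62.3 in TCRb+CD8a+PD1+ and 40.1 and 58.9 in TCRb+CD8a+PD1-NK1.1-. cNK and ILC1l overlapped. Tpx2, a spindle assembly factor that activates Aurora A, stood at 38.4 and 40.7 CPM in ILC1l, 18.2 and 25.6 in cNK, 58.7 and 60.9 in TCRab+ILTC1, 56.1 and 60.9 in TCRb+CD8a+NK1.1-, 53.6 and 98.7 in TCRgd+ILTC1 and 47.6 and 149 in TCRgd+NK1.1-. Tpx2 in the second set stood at 37.8 and 39.02 CPM in TCR-NK1.1+, 54.6 and 51.5 in TCRb+CD8a-NK1.1+, 75.97 and 47.04 in TCRb+CD8a+NK1.1+, 80.8 and 43.5 in TCRb+CD8a+PD1+ and 37.1 and 49.4 in TCRb+CD8a+PD1-NK1.1-. Both cNK libraries lay below all others. Stmn1, stathmin, which destabilises microtubules and is abundant in dividing lymphocytes, stood at 135 and 196 CPM in ILC1l, 76.4 and 117 in cNK, 168 and 56.9 in TCRab+ILTC1, 117 and 106 in TCRb+CD8a+NK1.1-, 155 and 128 in TCRgd+ILTC1 and 145 and 91.1 in TCRgd+NK1.1-. Stmn1 in the second set stood at 329.6 and 188 CPM in TCR-NK1.1+, 243 and 151 in TCRb+CD8a-NK1.1+, 256 and 153 in TCRb+CD8a+NK1.1+, 245 and 117 in TCRb+CD8a+PD1+ and 151 and 157 in TCRb+CD8a+PD1-NK1.1-. cNK was the lowest population by its mean, and TCRab+ILTC1 replicate 2 the lowest library. Kif20a, Kif23 and Nusap1 ran from 26.0 to 90.7, from 11.3 to 74.4 and from 32.7 to 142 CPM.

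Innate-like and conventional cells were compared within each lineage first. Differences are log2 fold changes ± SE, and a gene is called at an adjusted p under 0.05 (edgeR, quasi-likelihood test, Benjamini-Hochberg over all genes tested). The SE was derived from that test, as the size of the log2 fold change divided by the square root of its F statistic. No label says that replicate libraries came from separate mice, so p-values measure the spread between these libraries, which may be technical. Cell cycle genes are known to be switched together, so members are not independent and a single library can move most of them. A split of members into higher and lower is therefore a description, and the share over all genes beside it is no test.

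By the means, most cell cycle genes stood higher in ILC1l than in cNK cells, and no single gene passed the test. Of the 40 members 33 had a higher mean in ILC1l and 7 a lower one, with a median difference of 0.41, against 0.03 over all 16828 genes, of which 51.3% were higher. Of the members 0 were called by edgeR, where 1.02% of all genes were called. At an unadjusted p under 0.05 there were 2 members, beside 10.4% of all genes. DESeq2 called 1, Ccnb1, and 6.71% of the genes that passed the same filter and had a DESeq2 adjusted p, the share given for DESeq2 from here on. Both ILC1l libraries lay above both cNK libraries for 21 members and below for 2, where 26.0% and 27.3% of all genes did so. Cyclin B1, Ccnb1, stood at 37.3 and 32.8 CPM in ILC1l and 16.5 and 15.1 CPM in cNK, a difference of 1.19 ± 0.34 (SE; edgeR adjusted p = 0.193). Cenpa stood at 47.02 and 52.6 against 21.4 and 28.5 CPM, a difference of 1.04 ± 0.39 (SE; edgeR adjusted p = 0.357). For Cdk1 the values were 31.7 and 53.1 against 20.3 and 23.2 CPM, a difference of 1.01 ± 0.48 (SE; edgeR adjusted p = 0.517). The libraries of these 3 genes did not overlap. By role, all 5 centromere and passenger genes and all 6 DNA synthesis genes had higher means in ILC1l, with medians of 0.90 and 0.57, while the 8 licensing genes split 4 and 4 with a median of 0.02. The myeloid marker sum was 1183 and 1764 CPM in cNK and 309 and 369.6 CPM in ILC1l, and the epithelial sum 78.4 and 144 and 674 and 695 CPM; their part in these differences was not tested.

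TCRab+ILTC1 and TCRb+CD8a+NK1.1- T cells held cell cycle RNA at similar medians, with single genes apart in either direction. The members split into 20 higher and 20 lower, with a median difference of -0.0043 and a range from -1.42 to 1.82; the median over all genes was -0.07, and 44.1% of them were higher. Both TCRab+ILTC1 libraries lay above both partner libraries for 8 members and below for 7, where 18.3% and 24.6% of all genes did so. edgeR called 0 members, where 0.523% of all genes were called. There were 4 members at an unadjusted p under 0.05, beside 13.8% of all genes, and DESeq2 called 2, Ccnb1 and Uhrf1, beside 8.69%. Uhrf1, which recruits the maintenance DNA methyltransferase to replicated DNA, stood at 54.4 and 146 CPM in TCRab+ILTC1 and 29.2 and 26.5 CPM in TCRb+CD8a+NK1.1-, a difference of 1.82 ± 0.46 (SE; edgeR adjusted p = 0.121). The size rests much on replicate 2 of TCRab+ILTC1, although replicate 1 also lay above both partner libraries. Ccnb1 had the opposite sign: its levels of 20.7 and 19.3 CPM, against 40.8 and 43.1 CPM, gave a difference of -1.09 ± 0.34 (SE; edgeR adjusted p = 0.189). Cenpf, a kinetochore protein of late G2 and mitosis, stood at 26.1 and 21.9 against 53.9 and 72.2 CPM, -1.42 ± 0.52 (SE; edgeR adjusted p = 0.266). Mcm5 stood at 137 and 246 against 89.9 and 77.7 CPM, 1.17 ± 0.37 (SE; edgeR adjusted p = 0.199). By role, 4 of 5 centromere genes were lower in TCRab+ILTC1 (median -0.62) and 5 of 6 mitotic kinases and checkpoint genes higher (median 0.55). Without TCRab+ILTC1 replicate 1, edgeR called 2 members, Uhrf1 and Cdc45; the population then rests on replicate 2, which holds 3 counts of Cdc45. The epithelial marker sum was 2118 and 3348 CPM in TCRb+CD8a+NK1.1- and 916 and 797 CPM in TCRab+ILTC1, and its part in these differences was not tested.

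By the means, most cell cycle genes also stood higher in TCRgd+ILTC1 than in TCRgd+NK1.1- cells, with no single gene called. Of the 40 members 32 had a higher mean and 8 a lower one, with a median of 0.41, against -0.13 over all genes, of which 44.1% were higher. edgeR called 0 members, where 1.59% of all genes were called; 5 had an unadjusted p under 0.05, beside 17.4% of all genes. DESeq2 called 3, beside 12.7% of genes: Cenpf and Mcm4, higher in TCRgd+ILTC1, and Ccnb1, lower there at 28.1 and 31.5 against 51.2 and 41.3 CPM. Without overlap 16 members were higher and 2 lower, against 21.0% and 21.1% of all genes. Mcm4 stood at 284 and 293 CPM in TCRgd+ILTC1 and 83.7 and 148 CPM in TCRgd+NK1.1-, a difference of 1.28 ± 0.30 (SE; edgeR adjusted p = 0.0719). Cenpf stood at 49.9 and 69.1 against 20.3 and 6.80 CPM, 2.13 ± 0.53 (SE; edgeR adjusted p = 0.0819). Mcm7 stood at 121 and 97.6 against 64.2 and 34.9 CPM, 1.12 ± 0.35 (SE; edgeR adjusted p = 0.142). Libraries did not overlap for these genes. Rrm2, at 334 and 294 against 133 and 209 CPM, differed by 0.84 ± 0.34 (SE; edgeR adjusted p = 0.238). In the licensing role 7 of 8 genes and in DNA synthesis 5 of 6 were higher, with medians of 0.49 each, whereas the medians of mitotic cyclins and mitotic kinases were -0.06 and -0.04. RLE scaling moved the median of all genes here from -0.13 to -0.27, and the members then split 28 to 12 with a median of 0.28. These differences came with a myeloid marker sum of 7573 and 18818 CPM in TCRgd+NK1.1- and 201 and 253 CPM in TCRgd+ILTC1. All 15 markers had 3 or more counts in both libraries of the former. In the latter 13 did so, and Mrc1 had 0 counts in both. The part of myeloid cells in these differences was not tested. Leaving out TCRgd+NK1.1- replicate 1 gave 3 called members (Cenpf, E2f1 and Mcm7) and leaving out replicate 2 gave 1 (Mcm4), each on a single remaining library of that population. For E2f1 that library is the one with 0 counts.

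Averaged over the 3 lineages, the members leaned toward the innate-like side, and Uhrf1 was the one member called. The mean of the 3 differences was above 0 for 36 members and below 0 for 4, where 45.7% of all genes tested were above 0. The members' median was 0.24, the median of all genes -0.08. The alpha-beta pair alone split 20 to 20 with a median of -0.0043, so the lean was that of the ILC1l and gamma-delta pairs. In the gamma-delta pair the conventional side had a myeloid marker sum of 7573 and 18818 CPM, and the part of myeloid cells was not tested. How the members split without the TCRgd+ populations is not given here. Of the 40 members 12 were above 0 in all 3 lineages and 0 below 0 in all 3. The same counts were not made over all genes. With RLE scaling, or with scaling factors from genes that do not follow the myeloid or epithelial markers (marker-free scaling), the split was 32 to 8 with a median of 0.17, against -0.15 over all genes. edgeR called 1 of 40 members, 2.50%, against 5.87% of all genes (987 of 16828). DESeq2 also called 1, Uhrf1, beside 15.3%, and 3 members had an unadjusted p under 0.05, beside 19.9% of all genes. Uhrf1 stood at 47.9 and 67.5 CPM in ILC1l and 30.9 and 37.5 CPM in cNK. In the gamma-delta pair it stood at 56.8 and 75.7 against 44.6 and 44.99 CPM, a difference of 0.54 ± 0.44 (SE; edgeR adjusted p = 0.572). Its mean difference was 1.05 ± 0.26 (SE; edgeR adjusted p = 0.0430), with both innate-like libraries above both conventional libraries in each lineage. Uhrf1 in the second set stood at 48.3 and 46.6 CPM in TCR-NK1.1+, 53.5 and 47.9 in TCRb+CD8a-NK1.1+, 65.1 and 31.6 in TCRb+CD8a+NK1.1+, 35.6 and 27.7 in TCRb+CD8a+PD1+ and 45.5 and 59.95 in TCRb+CD8a+PD1-NK1.1-. Those levels overlapped broadly. The call in the mean over lineages depended on single libraries. Of 12 fits that each left out 1 library it held in 1, that without TCRab+ILTC1 replicate 1, and adjusted p ranged from 0.00629 to 0.156 over them (edgeR). It was also lost with RLE scaling, with marker-free scaling and without the TCRgd+ populations, at an adjusted p of 0.0596, 0.0540 and 0.0669 (edgeR). Mcm5, whose libraries likewise did not overlap in any lineage, had a mean difference of 0.65 ± 0.21 (SE; edgeR adjusted p = 0.119), and was not called. Lack of overlap in all 3 lineages was counted for members only, with no share over all genes.

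**Figure D3:**
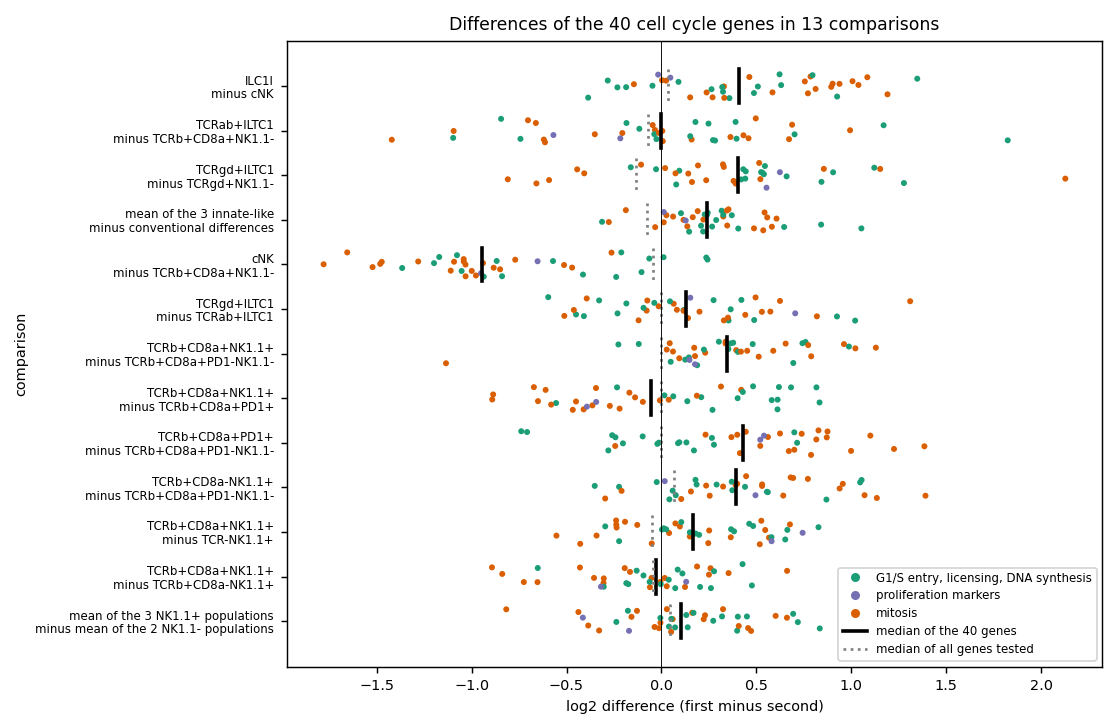
Log2 differences (x axis, first minus second) of the 40 genes in 13 comparisons (y axis); each point is a gene, coloured by role, with the median of the 40 genes (black) and of all genes tested (dotted). The points of cNK minus TCRb+CD8a+NK1.1- lie mostly left of 0 with a median of -0.95, and those of the mean of the 3 innate-like minus conventional differences mostly right of 0.

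The 3 lineages were then compared with each other. No interaction contrast called a member with edgeR; 6, 3 and 5 members had an unadjusted p under 0.05 in the contrasts of ILC1l minus cNK with the alpha-beta pair, of ILC1l minus cNK with the gamma-delta pair and of the alpha-beta with the gamma-delta pair, and DESeq2 called 3, 2 and 1, beside 3.85%, 9.79% and 3.48% of genes. The background of calls was 0.256%, 1.02% and 0.0535% of all genes by edgeR, and 8.73%, 15.9% and 8.85% at an unadjusted p under 0.05. Ccnb1 showed the clearest change of direction: it was higher in ILC1l than in cNK and lower in both ILTC1 populations than in their partners. The difference between the first and the alpha-beta pair was 2.29 ± 0.48 (SE; edgeR adjusted p = 0.110), and between the first and the gamma-delta pair 1.85 ± 0.48 (SE; edgeR adjusted p = 0.110). Cenpf went opposite ways in the alpha-beta and gamma-delta pairs, with a difference of -3.55 ± 0.74 (SE; edgeR adjusted p = 0.208). Mcm4 differed between ILC1l minus cNK and the gamma-delta pair by -1.66 ± 0.42 (SE; edgeR adjusted p = 0.104).

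Among the conventional populations, cNK held less cell cycle RNA than TCRb+CD8a+NK1.1- T cells by the means, with no single gene called: 37 of 40 members had a lower mean in cNK and 3 a higher one, with a median of -0.95, against -0.05 over all genes, of which 46.0% were higher. Without overlap 27 members were lower and 1 higher, where 24.8% and 24.5% of all genes did so. edgeR called 0 members, where 1.74% of all genes were called; 11 had an unadjusted p under 0.05, beside 11.4% of all genes, and DESeq2 called 6, Ccnb1, Cdc6, Cenpf, Kif20a, Nusap1 and Rrm2, beside 7.57% of genes. Ccnb1 stood at 16.5 and 15.1 CPM in cNK and 40.8 and 43.1 CPM in TCRb+CD8a+NK1.1-, a difference of -1.47 ± 0.34 (SE; edgeR adjusted p = 0.0794). Nusap1, a spindle-binding protein, stood at 32.7 and 46.03 against 80.4 and 135 CPM, -1.52 ± 0.37 (SE; edgeR adjusted p = 0.0936). Cenpf stood at 16.6 and 21.8 against 53.9 and 72.2 CPM, -1.78 ± 0.52 (SE; edgeR adjusted p = 0.173). Rrm2 at 105 and 158 against 202 and 319 CPM differed by -1.05 ± 0.34 (SE; edgeR adjusted p = 0.233), and Kif20a, a kinesin of cytokinesis, by -1.11 ± 0.37 (SE; edgeR adjusted p = 0.240). All 21 members of the 4 mitotic roles were lower in cNK, and 2 licensing genes and 1 DNA synthesis gene were the 3 higher ones; the licensing median was -0.23. Epithelial markers summed to 78.4 and 144 CPM in cNK and 2118 and 3348 CPM in the T cells, and their part in this difference was not tested.

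The 2 ILTC1 populations showed no called difference. TCRgd+ILTC1 exceeded TCRab+ILTC1 in 25 of 40 members, with a median of 0.13 against 0.00 over all genes, of which 45.7% were higher. edgeR called 0 members and 0 of all genes (0.00%), with 1 member at an unadjusted p under 0.05, beside 3.39% of all genes, and DESeq2 called 0 members and 0.566% of genes. That member was Cenpf, at 49.9 and 69.1 against 26.1 and 21.9 CPM, 1.31 ± 0.51 (SE; edgeR adjusted p = 1.00). Over the 6 populations together, edgeR found 0 members with any difference (background 4.76%), with 9 at an unadjusted p under 0.05, beside 19.2% of all genes, and DESeq2 called 10 of 40, beside 21.0% of genes.

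In the second set, NK1.1+ and PD1+ CD8 T cells each stood above CD8 T cells that carried neither marker by the means of most members. The lean of PD1+ cells rested more on replicate 1 than on replicate 2. TCRb+CD8a+NK1.1+ exceeded TCRb+CD8a+PD1-NK1.1- in 37 of 40 members, with a median of 0.35 against 0.00 over all 15727 genes, of which 47.0% were higher. edgeR called 0 members (background 1.78%), 2 had an unadjusted p under 0.05, beside 9.81% of all genes, and DESeq2 called 0, beside 5.38%. Without overlap 17 members were higher and 1 lower, against 20.1% and 20.4% of all genes. Bub1b stood at 61.97 and 29.5 against 19.6 and 22.4 CPM, 1.13 ± 0.44 (SE; edgeR adjusted p = 0.396). Kif23, a kinesin of the central spindle, was the member with the lowest value, with levels of 27.1 and 14.7 CPM against 55.7 and 36.7 CPM and a difference of -1.14 ± 0.51 (SE; edgeR adjusted p = 0.506).

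TCRb+CD8a+PD1+ exceeded TCRb+CD8a+PD1-NK1.1- in 30 of 40 members, with a median of 0.43 against 0.00 over all genes, of which 48.0% were higher. edgeR and DESeq2 called 0 members (background 0.451% and 2.63%), and 3 had an unadjusted p under 0.05, beside 6.77% of all genes. Both PD1+ libraries lay above both double-negative ones for 13 members and below for 2, where 18.1% and 17.1% of all genes did so. All 21 mitotic members but 1 were higher in PD1+ cells, with role medians of 0.46 to 0.87, while 6 of 8 licensing genes were lower, with a median of -0.06. Ccnb1 stood at 56.5 and 36.8 against 25.1 and 10.6 CPM, 1.39 ± 0.61 (SE; edgeR adjusted p = 0.724). Cenpa stood at 65.4 and 44.2 against 20.99 and 33.8 CPM, 1.00 ± 0.35 (SE; edgeR adjusted p = 0.506). Neither was called. Replicate 1 of PD1+ cells was the higher library for most mitotic genes, and the 2 PD1+ libraries differed by a median of 0.71 on the log2 scale over members. By the mean log2 CPM of all members, PD1+ replicate 2, at 5.44, lay between the double-negative libraries, at 5.31 and 5.51. By role, replicate 2 lay above both double-negative libraries for proliferation markers, mitotic cyclins and Cdk1, and centromere genes. It lay below both for licensing and DNA synthesis and between them for the other roles. PD1+ and NK1.1+ CD8 T cells were compared directly as well: 19 members were higher in NK1.1+ cells and 21 lower, with a median of -0.05 against 0.00 over all genes, of which 46.6% were higher. edgeR and DESeq2 called 0 members (background 2.11% and 5.92%), and 1, Mcm5, had an unadjusted p under 0.05, beside 10.9% of all genes. Libraries did not overlap for 6 members that were higher and 6 that were lower, against 21.5% and 23.5% of all genes. All 8 licensing genes had the higher mean in NK1.1+ cells (median 0.44), and all 5 centromere genes and all 4 mitotic cyclins and Cdk1 the higher mean in PD1+ cells (medians -0.47 and -0.25). Mcm5 stood at 119.7 and 123 against 88.5 and 74.6 CPM, 0.58 ± 0.24 (SE; edgeR adjusted p = 0.407). Kif23 differed by -0.89 ± 0.50 (SE; edgeR adjusted p = 0.613). These comparisons share the NK1.1+, PD1+ or double-negative libraries, so they are not independent of one another.

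NK1.1+ T cells without CD8a also leaned above the double-negative CD8 T cells. TCRb+CD8a-NK1.1+ exceeded TCRb+CD8a+PD1-NK1.1- in 35 of 40 members, with a median of 0.40 against 0.06 over all genes, of which 53.8% were higher. edgeR called 0 members (background 1.42%), 6 had an unadjusted p under 0.05, beside 14.0% of all genes, and DESeq2 called 1, Kif20a, beside 7.16%. Without overlap 18 members were higher and 0 lower, against 17.6% and 19.0% of all genes. Kif20a stood at 89.8 and 90.7 against 48.8 and 46.3 CPM, 0.96 ± 0.29 (SE; edgeR adjusted p = 0.173). Cdc6 stood at 53.1 and 62.7 against 31.4 and 25.5 CPM, 1.05 ± 0.37 (SE; edgeR adjusted p = 0.238). Here the epithelial marker sum was 5389 and 1153 CPM against 272 and 405 CPM, and its part was not tested. Between CD8a+ and CD8a- NK1.1+ T cells, 3 members were higher and 8 lower without overlap, against 17.0% and 14.6% of all genes. CD8a+ and CD8a- NK1.1+ T cells split 18 higher to 22 lower, with a median of -0.03 against -0.05 over all genes, of which 46.4% were higher; edgeR and DESeq2 called 0 members (background 0.337% and 4.16%) and 1, Kif20a, had an unadjusted p under 0.05, beside 9.34% of all genes (-0.73 ± 0.29 (SE; edgeR adjusted p = 0.467)).

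TCRb+CD8a+NK1.1+ exceeded TCR-NK1.1+ in 29 of 40 members, with a median of 0.16 against -0.05 over all genes, of which 47.4% were higher. edgeR and DESeq2 called 0 members (background 1.54% and 7.49%), and 2 had an unadjusted p under 0.05, beside 15.4% of all genes. Libraries did not overlap for 12 members that were higher and 0 that were lower, against 20.6% and 25.5% of all genes. All 8 licensing genes were higher, with a median of 0.47. Mcm4 stood at 213 and 225 against 80.8 and 166 CPM, 0.83 ± 0.32 (SE; edgeR adjusted p = 0.256), and edgeR called it when TCR-NK1.1+ replicate 2 was left out (adjusted p = 0.0484). With RLE or marker-free scaling the split of members was 24 to 16, with a median of 0.08 against -0.13 or -0.14 over all genes. The epithelial marker sum was 618 and 738 CPM in TCRb+CD8a+NK1.1+ and 7981 and 4799 CPM in TCR-NK1.1+, and the myeloid sum 190.3 and 183 and 981 and 971 CPM; their part in these differences was not tested. The mean of the 3 NK1.1+ populations exceeded the mean of the 2 NK1.1- populations in 26 of 40 members, with a median of 0.10 against 0.05 over all genes, of which 52.9% were higher. edgeR called 0 members, where 7.27% of all genes were called; 4 had an unadjusted p under 0.05, beside 21.8% of all genes, and DESeq2 called 2, beside 15.7%: Cdc6 and Mcm5, with differences of 0.69 ± 0.24 (SE; edgeR adjusted p = 0.130) and 0.45 ± 0.16 (SE; edgeR adjusted p = 0.129). Kif23 lay the other way, -0.82 ± 0.32 (SE; edgeR adjusted p = 0.166). Over the 5 populations together edgeR found 0 members (background 6.10%), 2 at an unadjusted p under 0.05, beside 20.0% of all genes, and DESeq2 called 2, beside 17.1%.

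The wider machinery of replication and mitosis was read from 2 lists of genes that are not members. Of 28 other replication genes edgeR called 0 in any comparison, with 0 to 4 at an unadjusted p under 0.05, and DESeq2 called 0 to 3. Over all genes edgeR called 0.00 to 7.27% in these comparisons, 3.39 to 21.8% had an unadjusted p under 0.05, and DESeq2 called 0.566 to 21.0%. Of 40 other mitosis genes edgeR called 0 in every comparison except the mean of NK1.1+ against NK1.1- populations, where 2 fell, and the test over the same 5 populations, which called the same number. These 2 of 40 stand beside 7.27% and 6.10% of all genes called, so they are single genes and no result about the list. Unadjusted p was under 0.05 for 2 to 11 of them, and DESeq2 called 0 to 9. Cdc25b, the phosphatase that activates Cdk1, fell by 1.36 ± 0.25 (SE; edgeR adjusted p = 0.0105). It stood at 77.2 and 54.98 CPM in PD1+ and 46.98 and 42.9 CPM in double-negative CD8 T cells, and at 12.8 to 29.9 CPM in the NK1.1+ libraries. Smc4, a condensin subunit, fell by 0.95 ± 0.19 (SE; edgeR adjusted p = 0.0145), from 363 and 252 and 513 and 348 CPM in the NK1.1- populations to 130 to 252 CPM in the NK1.1+ ones. The Smc4 levels met at 252 CPM, in TCRb+CD8a+PD1+ replicate 2 and TCRb+CD8a-NK1.1+ replicate 2, and those of Cdc25b did not overlap. Leaving out TCRb+CD8a+PD1+ replicate 1 ended the call of either gene, at an adjusted p of 0.0536 for Cdc25b and 0.0875 for Smc4, and that of Smc4 ended also without TCRb+CD8a+NK1.1+ replicate 1 or TCRb+CD8a+PD1-NK1.1- replicate 1 (edgeR). In the test over the 5 populations both calls were lost with RLE or marker-free scaling, at an adjusted p of 0.0511 to 0.0583 (edgeR). The medians of the other mitosis and replication genes in cNK minus TCRb+CD8a+NK1.1- were -0.97 and -0.55, with 38 of 40 and 26 of 28 below 0, beside -0.95 for the 40 members.

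Of 14 G1 cyclins, kinases and E2F genes, Ccnd1 and Cdk6 were called between populations. edgeR called 2 of the 14 in the mean over lineages, 1 in the mean of NK1.1+ populations, 1 in TCRb+CD8a+NK1.1+ against TCR-NK1.1+ and 1 in cNK against TCRb+CD8a+NK1.1-, beside 5.87%, 7.27%, 1.54% and 1.74% of all genes. Cdk6, the kinase bound by D cyclins in lymphocytes, fell by 1.92 ± 0.35 in cNK against TCRb+CD8a+NK1.1- (SE; edgeR adjusted p = 0.0259). It stood at 77.99 and 118 CPM in cNK, 441 and 271 CPM in TCRb+CD8a+NK1.1- and 257 and 260.4 CPM in ILC1l. In TCRgd+ILTC1 it stood at 383 and 385 CPM, in TCRgd+NK1.1- at 135 and 225 CPM and in TCRab+ILTC1 at 328 and 380.4 CPM. The libraries of the alpha-beta pair overlapped, and those of the other pairs did not. In the second set Cdk6 stood at 156 and 216 CPM in TCR-NK1.1+, 279 and 293 in TCRb+CD8a-NK1.1+ and 528 and 403 in TCRb+CD8a+NK1.1+. Levels there were 923 and 494 CPM in TCRb+CD8a+PD1+ and 264 and 215 CPM in TCRb+CD8a+PD1-NK1.1-, so NK1.1+ and NK1.1- cells overlapped for Cdk6. Over the 3 lineages it rose on the innate-like side by 0.82 ± 0.19 (SE; edgeR adjusted p = 0.0373). The first call was lost without either cNK library or TCRb+CD8a+NK1.1- replicate 1, at an adjusted p of up to 0.281, and the second held in 4 of 12 fits that left out 1 library. The second was also lost with RLE scaling (adjusted p = 0.0506), with marker-free scaling (adjusted p = 0.0559) and without the TCRgd+ populations, where the difference was 0.70 (edgeR adjusted p = 0.166). Ccnd1, cyclin D1, which lymphocytes hardly use and epithelial cells do, was highest in the 4 populations with the highest epithelial marker sums: 71.5 and 45.9 CPM in TCR-NK1.1+, 54.8 and 21.1 CPM in TCRgd+NK1.1-, 35.9 and 7.72 CPM in TCRb+CD8a-NK1.1+ and 16.3 and 25.4 CPM in TCRb+CD8a+NK1.1-. The other libraries held 0 to 4.82 CPM. It fell by 3.67 ± 0.81 on the innate-like side (adjusted p = 0.0291) and by 4.04 ± 0.76 in TCRb+CD8a+NK1.1+ against TCR-NK1.1+ (adjusted p = 0.0316), and rose by 2.51 ± 0.49 (SE; edgeR adjusted p = 0.0130) in the mean of NK1.1+ populations (edgeR). The first of these calls held in 6 of 12 fits that left out 1 library, the second in 0 of 4 and the third in 8 of 10, all but those without TCRb+CD8a+PD1-NK1.1- replicate 1 or TCRb+CD8a+PD1+ replicate 2. The first was lost without the TCRgd+ populations, where the difference was -3.10 (adjusted p = 0.140), and the second and the third in 1 fit over 22 libraries, at an adjusted p of 0.149 and 0.0665 (edgeR). The part of epithelial cells in these Ccnd1 values was not tested. Ccnd2 and Ccnd3, the D cyclins of lymphocytes, were not called in any comparison between 2 populations by edgeR.

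A list of 20 inhibitors and quiescence genes was read as well, of which 19 passed the filter in the first set and 20 in the second. Over the 3 lineages edgeR called 2 of 19, Btg2 and Cdkn1a, beside 5.87% of all genes. An unadjusted p under 0.05 was found for 10 of the 19, beside 19.9% of all genes, and DESeq2 called 7, beside 15.3%. Btg2, an antiproliferative gene, fell by 1.25 ± 0.20 in ILC1l against cNK (SE; edgeR adjusted p = 0.0199), from 1219 and 1282 to 499 and 524 CPM. It stood at 403 and 419 CPM in TCRab+ILTC1, 674 and 829.6 CPM in TCRb+CD8a+NK1.1-, 640.3 and 651 CPM in TCRgd+ILTC1 and 700.0 and 608 CPM in TCRgd+NK1.1-. The gamma-delta pair overlapped, and the other lineages did not. In the second set Btg2 stood at 995 and 861 CPM in TCR-NK1.1+, 718 and 529 in TCRb+CD8a-NK1.1+ and 729 and 510 in TCRb+CD8a+NK1.1+. Levels there were 988 and 682 CPM in TCRb+CD8a+PD1+ and 805 and 568 CPM in TCRb+CD8a+PD1-NK1.1-, so NK1.1+ and NK1.1- cells overlapped for Btg2. Over the 3 lineages it fell by 0.73 ± 0.12 (edgeR adjusted p = 0.00752), and this call held in 12 of 12 fits that left out 1 library, while that of ILC1l against cNK alone was lost without any of its 4 libraries, at an adjusted p of 0.167 to 0.248. Cdkn1a, the p21 inhibitor of cyclin-dependent kinases, fell by 2.80 ± 0.48 over the 3 lineages (edgeR adjusted p = 0.0104), held in 12 of 12 such fits. It stood at 2.22 and 2.00 CPM in ILC1l, 4.54 and 2.68 CPM in TCRab+ILTC1 and 6.25 and 2.10 CPM in TCRgd+ILTC1. In the conventional partners it stood at 21.7 and 27.9, 13 and 14.6 and 51.7 and 11.7 CPM. None of the pairs overlapped. In the second set Cdkn1a stood at 10.4 and 34.8 CPM in TCR-NK1.1+, 13.8 and 21.9 in TCRb+CD8a-NK1.1+ and 5.22 and 3.83 in TCRb+CD8a+NK1.1+. Levels there were 10.9 and 8.32 CPM in TCRb+CD8a+PD1+ and 5.90 and 16.2 CPM in TCRb+CD8a+PD1-NK1.1-. TCR-NK1.1+ and TCRb+CD8a-NK1.1+ thus overlapped the NK1.1- cells and were not low. The conventional partners also had the higher myeloid marker sums, 944 to 18818 CPM against 161 to 694 CPM in the innate-like libraries, and the part of myeloid cells in the Cdkn1a difference was not tested.

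Slfn2, a quiescence gene of T cells, separated NK1.1+ from NK1.1- cells by its levels in both sets, and edgeR called it in the second alone. In the first set it stood at 259 to 394 CPM in ILC1l, cNK and both ILTC1 populations. The NK1.1- populations of that set held 444 to 517 CPM, and DESeq2 called the gene in the alpha-beta pair. In the second set Slfn2 stood at 232 to 310 CPM in the 6 NK1.1+ libraries and at 676 to 807 CPM in the 4 NK1.1- ones, with no overlap. Its mean fell by 1.40 ± 0.15 (SE; edgeR adjusted p = 0.00069) and the call held in all 10 fits that left out 1 library. The same gene fell by 1.49 ± 0.25 in TCRb+CD8a+NK1.1+ against TCRb+CD8a+PD1-NK1.1- (adjusted p = 0.0183), by 1.49 ± 0.25 against PD1+ cells (adjusted p = 0.0120) and by 1.28 ± 0.25 in TCRb+CD8a-NK1.1+ against double-negative cells (edgeR adjusted p = 0.0380). Each of these was lost without any 1 of its 4 libraries, where the adjusted p was 0.0522 to 0.232. Klf2, which keeps T cells quiescent and circulating, stood at 2.09 and 3.83 CPM in TCRb+CD8a+NK1.1+ and 51.6 and 68.5 CPM in double-negative CD8 T cells, a fall of 4.33 ± 0.74 (edgeR adjusted p = 0.0212). Its levels in PD1+ cells were 11.3 and 15.6 CPM. Foxo1, which drives Klf2, stood at 43.3 and 33.3 against 176 and 124 CPM in the same pair, a fall of 1.97 ± 0.39 (edgeR adjusted p = 0.0396). Both calls were lost without any 1 of the 4 libraries, at adjusted p of 0.0713 to 0.353. Foxo3 went the other way: it rose by 1.62 ± 0.30 (SE; edgeR adjusted p = 0.0222) in NK1.1+ against PD1+ CD8 T cells, from 23.7 and 26.6 to 70.2 and 83.9 CPM, and was lost without any 1 of those 4 libraries at an adjusted p of up to 0.237. In the mean of NK1.1+ against NK1.1- populations, 4 of 20 inhibitor and quiescence genes fell and 1 rose, beside 7.27% of all genes called: Slfn2 above, Klf2 by 1.69 ± 0.41 (adjusted p = 0.0374), Foxo1 by 1.08 ± 0.24 (adjusted p = 0.0247), Foxp1 by 0.89 ± 0.18 (adjusted p = 0.0158), and Foxo3, which rose by 0.84 ± 0.20 (SE; edgeR adjusted p = 0.0300). Of the fits that left out 1 of 10 libraries, the calls of Klf2, Foxo1, Foxp1 and Foxo3 held in 3, 5, 7 and 3, and each was lost without replicate 1 of TCRb+CD8a+NK1.1+, TCRb+CD8a+PD1+ or TCRb+CD8a+PD1-NK1.1- (edgeR). Klf2 and Foxo3 were also lost without replicate 2 of any of these or of TCR-NK1.1+, and Foxo1 without replicate 2 of TCRb+CD8a+NK1.1+ or TCRb+CD8a+PD1+, at adjusted p of up to 0.157. In 1 fit over 22 libraries, the calls of Klf2 and Foxo3 in this mean, of Klf2 and Foxo1 in NK1.1+ against double-negative cells and of Foxo3 against PD1+ cells were lost, at an adjusted p of 0.0601 to 0.159 (edgeR). Foxp1 stood at 458 and 285 CPM in double-negative CD8 T cells and 95.6 to 207 CPM in the other 8 libraries. The NK1.1+ libraries held 2.09 to 25.5 CPM of Klf2 and 29.6 to 66.7 CPM of Foxo1. Both PD1+ libraries lay within these ranges, with Foxo1 at 52.7 and 66.1 CPM. For Klf2, Foxo1 and Foxp1 the double-negative cells stood above all other libraries of the set. The falls of Klf2 and Foxo1 in this mean therefore do not separate NK1.1+ from PD1+ cells.

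**Figure D4:**
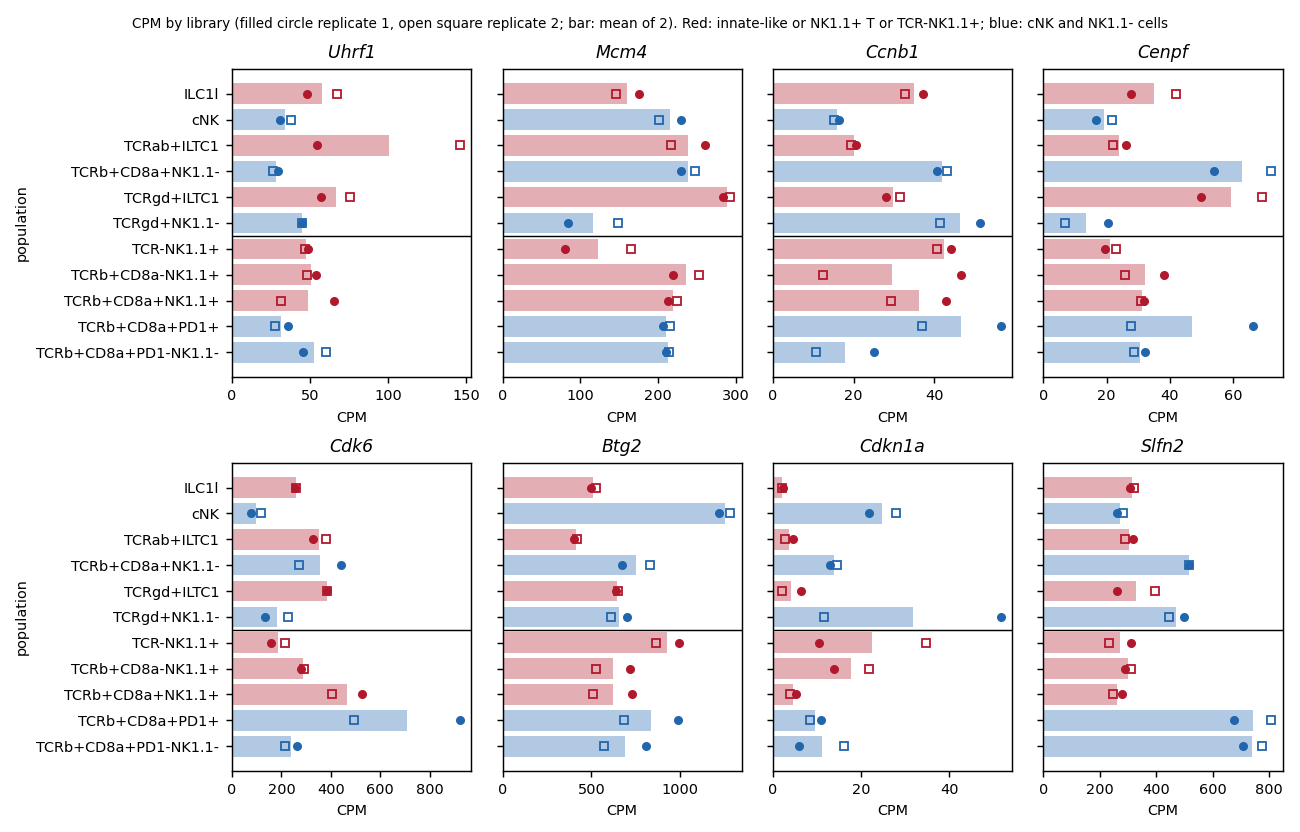
CPM (x axes, linear, from 0) of 4 members and of Cdk6, Btg2, Cdkn1a and Slfn2 by population (y axes); points are the 2 libraries and bars their mean, and the line separates the 2 sets. Uhrf1 lies higher in each innate-like population than in its partner, Btg2 is highest in cNK, and Cdkn1a is low in ILC1l and both ILTC1 populations. Slfn2 is lower in the NK1.1+, ILC1l, cNK and ILTC1 populations than in the others.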

How the data were processed

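RNA was amplified with the SMARTer method from sorted tumour lymphocytes and sequenced, per the labels' protocols. The authors deposited raw counts per gene, with no normalization, for 22 libraries. Per the submitters' processing notes the reads were handled with BWA 0.7.5a, Picard and HTSeq on mm9 (NCBIM37); no source used here says whether counting was strand-aware. Of 37620 genes, 32897 have a symbol, and these hold 99.0% of the counts.

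The 40 members and the other gene lists were chosen with earlier results of these data known. Libraries titled ILC1I and ILC1l were treated as 1 population. The 2 sets of populations were fitted separately (10 and 12 libraries; 15727 and 16828 genes after filterByExpr) with edgeR 4.0.16 in R 4.3.3, using TMM scaling, quasi-likelihood F tests and Benjamini-Hochberg adjustment over all genes tested, called at 0.05. Levels are CPM with TMM over all 22 libraries; log2 CPM adds a prior count of 1. Library totals set the precision: 3 counts correspond to 0.146 to 0.345 CPM. With 2 libraries a group, no exact permutation test of a pair of populations can fall under 0.05, so tests rest on the fits over all genes. The fit was run on simulated counts with known changes. The share it recovered is not given here, so an uncalled member is not thereby shown to be equal between populations. Alternatives were RLE scaling, no filter, DESeq2 1.42.0, 1 fit over 22 libraries, a replicate block, scaling without genes that follow the myeloid or epithelial markers, a mean without the TCRgd+ populations, and leaving out each library.

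The rule for named genes gives 20 members (such as Mki67, Mcm2 and Ccnb1) and each member called by edgeR in every library, and of the other lists up to 4 genes called in each direction of a comparison. The uncalled members named with a difference in a comparison lie outside that rule and were chosen after their values were seen, mostly for a low p or a call by DESeq2, so their differences are not a sample of all members.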

Additional observations from a re-analysis of the deposited data

How the results depend on the processing

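Members called are few and depend on the method; the cause of each change below was not tested. DESeq2 called 1 member in ILC1l minus cNK, 2 in the alpha-beta pair, 3 in the gamma-delta pair, 6 in cNK minus TCRb+CD8a+NK1.1-, 1 in TCRb+CD8a-NK1.1+ minus TCRb+CD8a+PD1-NK1.1-, 2 in the mean of NK1.1+ populations, 3, 2 and 1 in the interactions, and 2 and 10 in the tests over 5 and 6 populations, each against 0 by edgeR. Without the filter on low counts, edgeR called 1 member in the alpha-beta pair, 2 in the gamma-delta pair, 2 in cNK minus TCRb+CD8a+NK1.1-, 1 in each of the 2 interactions with the gamma-delta pair, and 1 and 5 over the 5 and 6 populations. In 1 fit over 22 libraries it called 1, 2 and 1 in those 3 pairs, 2 in the mean over lineages, 1 in the interaction of ILC1l minus cNK with the gamma-delta pair and 2 over the 6 populations. The mean over lineages called 0 members, against 1, with RLE scaling, with scaling without marker-following genes and without the TCRgd+ populations.

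Leaving out 1 library at a time gave 0 to 2 called members in the alpha-beta pair, 0 to 3 in the gamma-delta pair, 0 to 2 in the mean over lineages, 0 to 1 in TCRgd+ILTC1 minus TCRab+ILTC1, in TCRb+CD8a+NK1.1+ minus TCR-NK1.1+ and in each interaction, 0 to 3 over the 6 populations and 0 to 0 in the other comparisons. Each of these lone libraries is assumed to vary like the other groups.

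Counts over all genes moved more. Calls in ILC1l minus cNK were 171, 787 without the filter, 925 with DESeq2, 327 in 1 fit over 22 libraries and 34 to 79 with 1 library left out. In the alpha-beta pair they were 88, 1244, 1325, 282 and 11 to 840, in the gamma-delta pair 268, 1786, 1878, 626 and 7 to 804, in the mean over lineages 987, 2233, 2399, 1517 and 448 to 1836 (437 without the TCRgd+ populations), and in cNK minus TCRb+CD8a+NK1.1- 293, 1094, 1120, 450 and 93 to 158. In the second set they were 280, 747, 795, 168 and 46 to 105 for TCRb+CD8a+NK1.1+ against TCRb+CD8a+PD1-NK1.1-, and 1144, 2099, 2373, 838 and 575 to 1758 for the mean of NK1.1+ populations.

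No label ties replicate numbers across populations. Deviations of same-numbered libraries correlated at 0.04 to 0.19 in the second set (10 of 10 pairs of populations above 0, 6 over 0.1) and -0.04 to 0.13 in the first (2 of 15 over 0.1), so the pairing was not taken as given in either set, and whether numbers of the second set share a source is not settled here. With a replicate block edgeR called 1 member, Uhrf1, in the mean over lineages and 0 in the other comparisons, and calls over all genes rose in the second set: from 280 to 421, from 71 to 125 and from 223 to 406 for TCRb+CD8a+NK1.1+, PD1+ and TCRb+CD8a-NK1.1+ against double-negative cells, from 332 to 498 and from 242 to 387 for TCRb+CD8a+NK1.1+ against PD1+ and TCR-NK1.1+ cells, and from 1144 to 1759 in the mean of NK1.1+ populations. In the first set they went from 268 to 219 in the gamma-delta pair, from 987 to 906 in the mean over lineages and from 801 to 646 over the 6 populations. Scaling moved the split of members to 18 higher and 22 lower in the alpha-beta pair (RLE, median -0.11).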
